A study of Mus musculus with 9 samples.

Results

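The Hox genes of the mouse lie in 4 clusters, Hoxa, Hoxb, Hoxc and Hoxd, and the members were chosen as rows of the deposited count table whose symbol is a cluster letter with a position number. Described here are 14 of the 23453 gene symbols in the table, and the other genes of the 4 clusters are not analysed here. For 24 other Hox genes annotated in GENCODE M21 the table had no row. Sums by cluster and by position therefore cover the listed members only. The members are 2 Hoxa genes (Hoxa2, Hoxa7), 7 Hoxb genes (Hoxb1, Hoxb2, Hoxb3, Hoxb4, Hoxb7, Hoxb8, Hoxb9), 1 Hoxc gene (Hoxc13) and 4 Hoxd genes (Hoxd1, Hoxd4, Hoxd8, Hoxd13). All 14 had row totals below the median row total of the table, 556 counts over the 9 libraries.

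RNA of mouse epiblast-like cells was sequenced in bulk in 3 states, with 3 libraries per state. EpiLCs were made from naive ESCs over 48 h in N2B27 medium with Activin, FGF2 and a serum replacement (KSR, 1%). These cells were harvested, or kept for a further 24 h in N2B27 basal medium to give aEpiLCs, which stand for the anterior epiblast. The same further 24 h with CHIR99021, an agonist of the WNT pathway, and Activin gave pEpiLCs, which stand for the posterior epiblast. By the study's methods KSR at 1% was in the medium of both later states as well. The study describes the aEpiLCs it compared with pEpiLCs as wild-type, the labels name no genotype or cell line, and nothing says that replicates came from separate cultures, so p-values measure only the spread between these samples. All 3 states are cultures of a single derivation route and lack the neighbouring tissues of an embryo.

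Hox genes encode homeodomain transcription factors that give cells of the trunk and hindbrain their position along the anteroposterior axis. Genes with low position numbers lie at one end of each cluster, are switched on first in the posterior primitive streak under WNT, FGF and retinoid signals, and act more anteriorly in the embryo. Genes with high position numbers follow later and act in the posterior trunk, the tail and the limbs, and the epiblast before gastrulation is known for silent Hox clusters.

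Total counts ranged from 20560564 to 23417917 per library, and the detection limit of 3 counts in a library equalled 0.131 to 0.144 CPM (counts scaled to library size by edgeR's TMM method). A count of 3 has a 95% exact Poisson interval of 0.619 to 8.77, which covers counting error only. pEpiLC replicate 1 stood apart: 321 and 326 of 15793 genes differed over 4-fold from replicates 2 and 3, against 66 between those, and 57 to 75 within the other states. The summed level of 10 posterior markers was 2666 CPM in it and 911 and 922 CPM in the others, against 23.8 to 40.0 CPM in EpiLC and aEpiLC. The epiblast markers (7 genes) summed to 4374 to 4933 CPM in EpiLC and aEpiLC and to 1864, 3178 and 2897 CPM in the pEpiLC replicates. That sum was mostly Dnmt3b and Pou5f1, with means of 2670 and 1116 CPM in EpiLC and 1256 and 962 CPM in pEpiLC. Otx2, Pou3f1, Sall2 and Utf1 also had lower means in pEpiLC. Fgf5 went the other way, with means of 84.5 CPM in EpiLC and 169.5 CPM in pEpiLC. The anterior neural markers (8 genes) summed to 57.3 to 67.8 CPM in EpiLC and 103 to 110 CPM in aEpiLC. They summed to 12.7 to 35.6 CPM in pEpiLC. That sum was almost all Sox2, with means of 59.98, 101.6 and 23.69 CPM in EpiLC, aEpiLC and pEpiLC. Pax6 had means of 0.558 CPM in EpiLC and 1.99 CPM in aEpiLC. Sox1 and Zic1 had lower means in aEpiLC than in EpiLC. Six3, Hesx1, Lhx2 and Rax had higher means in aEpiLC, each below that of Sox1. Of the 12 fibroblast markers, 10 were in the table and summed to 131 CPM in pEpiLC replicate 1 against 35.4 to 50.6 CPM elsewhere. That sum was mostly Pdgfra (51.8 CPM) and Fbn1 (44.4 CPM), Pdgfrb (14.3 CPM), Col1a2 (10.2 CPM) and Twist2 (0.814 CPM) were also at their highest in that library, while Prrx1 and Col3a1 were at 0 and Dcn was at 0.239 CPM. Of the 10 extraembryonic endoderm markers, 8 were in the table and summed to 71.2 CPM against 8.06 to 17.5 CPM. That sum was mostly Gata6 (46.7 CPM), Gata4 (12.4 CPM), Dab2 (5.94 CPM) and Sox17 (4.69 CPM), while Apoa1 and Sox7 were at 0. Dab2 and Amn were lower in pEpiLC replicate 1 than in any EpiLC or aEpiLC library. The defining Lum, Postn, Afp and Ttr were not among the rows used, and the part of these markers' levels in the results was not tested. Results that rest on pEpiLC replicate 1 are also given without it.

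Promoter sequences were available from RefSeq (GRCm38.p6, 250 bases before to 50 after the start) for 9 of the 14 members: Hoxa2, Hoxa7, Hoxb1, Hoxb4, Hoxb8, Hoxd1, Hoxd4, Hoxd8 and Hoxd13. The 250 bases before the start are shown for Hoxb1 and Hoxd1, which had more counts in pEpiLC, and for Hoxd13, which was above the detection limit in all 9 libraries. Capitals mark the PBX-HOX motif TGATNNAT in Hoxb1, and in Hoxd13 a pair of overlapping matches to TATAAA, 1 on each strand. Hoxd1 held no searched motif and has no capitals.
Hoxb1, chr11:96365508-96365757, plus strand: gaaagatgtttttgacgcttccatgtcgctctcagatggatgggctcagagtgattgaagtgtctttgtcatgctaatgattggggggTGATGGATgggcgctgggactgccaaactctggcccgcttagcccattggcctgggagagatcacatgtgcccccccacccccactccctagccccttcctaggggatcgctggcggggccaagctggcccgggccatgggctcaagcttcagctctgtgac
Hoxd1, chr2:74762730-74762979, plus strand: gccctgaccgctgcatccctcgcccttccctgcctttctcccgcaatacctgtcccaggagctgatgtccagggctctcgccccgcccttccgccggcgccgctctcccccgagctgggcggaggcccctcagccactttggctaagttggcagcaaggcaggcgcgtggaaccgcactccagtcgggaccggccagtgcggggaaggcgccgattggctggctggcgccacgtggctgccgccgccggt
Hoxd13, chr2:74667975-74668224, plus strand: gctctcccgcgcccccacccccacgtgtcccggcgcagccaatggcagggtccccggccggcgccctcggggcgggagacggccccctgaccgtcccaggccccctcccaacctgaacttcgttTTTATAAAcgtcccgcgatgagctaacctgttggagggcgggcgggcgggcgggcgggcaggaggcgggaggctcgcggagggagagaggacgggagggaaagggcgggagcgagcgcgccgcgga
The windows were searched on both strands for letters that WNT effectors, T-box and CDX factors, PBX-HOX dimers and retinoic acid receptors are known to bind. TGATNNAT was found in Hoxa2, Hoxb1 and Hoxb8 and in 8.85% of all 32851 promoters. The TCF/LEF letters CTTTGAA were found in 0 of the 9 members (5.14% of all promoters) and CTTTGAT in Hoxd8 (3.73%). The T-box letters GGTGTGA were in 0 of the 9 (3.98%), and the CDX letters TTTATNG in Hoxb8 and Hoxd4 (10.9%). TATAAA, whose letters can overlap TTTATNG on the other strand, was in Hoxb8, Hoxd4 and Hoxd13 (13.6%). Direct repeats of the retinoic acid receptor, 2 copies of AGGTCA or of AGTTCA with 5 bases between, were in 0 of the 9 members and in 0.00913% and 0.0244% of all promoters. The GC content was 59.3% in Hoxb1, 69.7% in Hoxd1 and 74.3% in Hoxd13, against a median of 52.7% over all promoters, with 10, 29 and 37 CpGs against a median of 7. These matches describe the letters in the windows and no binding.

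The homeobox, the coding part of the DNA-binding homeodomain, is 180 bases long and was found in all 14 members on GRCm38. It was identical between Hoxb1 and Hoxd1 at 72.8% of bases, and over all 91 pairs of members identity ranged from 47.8% to 85.0% with a median of 61.7%. The longest unbroken run that a member's transcript shared with that of another Hox gene compared was 20 to 52 bases, and 32 for Hoxd1. RSEM divides reads that match several genes, and whether reads from such runs were divided was not tested.

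Most of the listed Hox genes lay at or near the detection limit in all 3 states. A member was above the detection limit in every library of EpiLC in 2 cases (Hoxc13, Hoxd13), of aEpiLC in 1 (Hoxd13) and of pEpiLC in 4 (Hoxb9, Hoxc13, Hoxd1, Hoxd13). In at least 1 library, 5 members were above the limit in EpiLC, 3 in aEpiLC and 9 in pEpiLC. Members at or under 3 counts in every library numbered 9 in EpiLC, 11 in aEpiLC and 5 in pEpiLC. Hoxb4, Hoxb7, Hoxb8, Hoxd4 and Hoxd8 were at or under the limit in all 9 libraries. Just inside the limit were Hoxa7, with a highest count of 4, and Hoxa2, with a highest count of 5, while the 5 genes just outside had highest counts of 1 or 2.

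**Figure D1:**
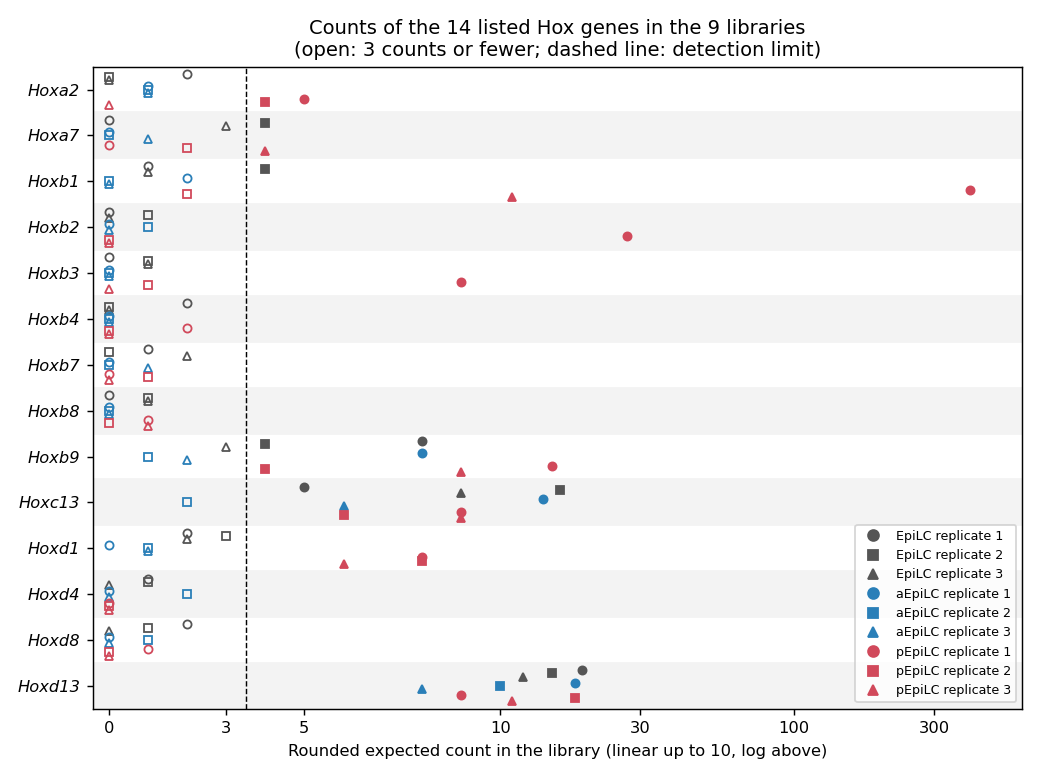
Rounded expected count (x axis, linear up to 10 and log above) of each of the 14 Hox genes (y axis) in the 3 libraries of each state, with open symbols at or under the detection limit of 3 counts (dashed line). Most points lie at the left edge, and the highest, 397 counts, is Hoxb1 in pEpiLC replicate 1.

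By cluster, the 2 Hoxa members together had 2, 4 and 3 counts in the EpiLC replicates, 1, 1 and 2 in aEpiLC, and 5, 6 and 4 in pEpiLC. The 7 Hoxb members had 12, 11 and 8, then 10, 2 and 3, then 451, 8 and 21. The 4 Hoxd members had 24, 20 and 14, then 18, 14 and 9, then 18, 26 and 17, and Hoxc13 alone stood for the Hoxc cluster. In the sums of the Hoxb, Hoxc and Hoxd members, pEpiLC overlapped both other states, and in that of the Hoxa members every pEpiLC library was above every aEpiLC library.

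By position number, the 5 members with numbers 1 to 3 together had 5, 9 and 4 counts in EpiLC, 3, 3 and 2 in aEpiLC, and 446, 15 and 17 in pEpiLC. The 3 states did not overlap in this sum, with aEpiLC lowest and pEpiLC highest. An exact permutation test of 3 against 3 libraries cannot give a p below 0.1, and none was run on this sum. Positions 4 to 8 summed to 6, 7 and 6 counts in EpiLC, 0, 3 and 2 in aEpiLC, and 4, 3 and 5 in pEpiLC. In this sum every EpiLC library was above every aEpiLC and every pEpiLC library, with no member above 4 counts in any library. Of all single genes, 22.6% were higher and 21.8% lower in every pEpiLC library than in any EpiLC library. The shares were 22.2% and 19.9% in aEpiLC against EpiLC, and 14.4% and 15.1% in pEpiLC against aEpiLC. Positions 9 to 13 summed to 32, 35 and 24, then 40, 13 and 16, then 33, 28 and 29, and the states overlapped. The 14 members together made 43, 51 and 34 counts in EpiLC, 43, 19 and 20 in aEpiLC, and 483, 46 and 51 in pEpiLC. In bulk RNA, fewer cells with a transcript and less transcript per cell cannot be told apart.

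**Figure D2:**
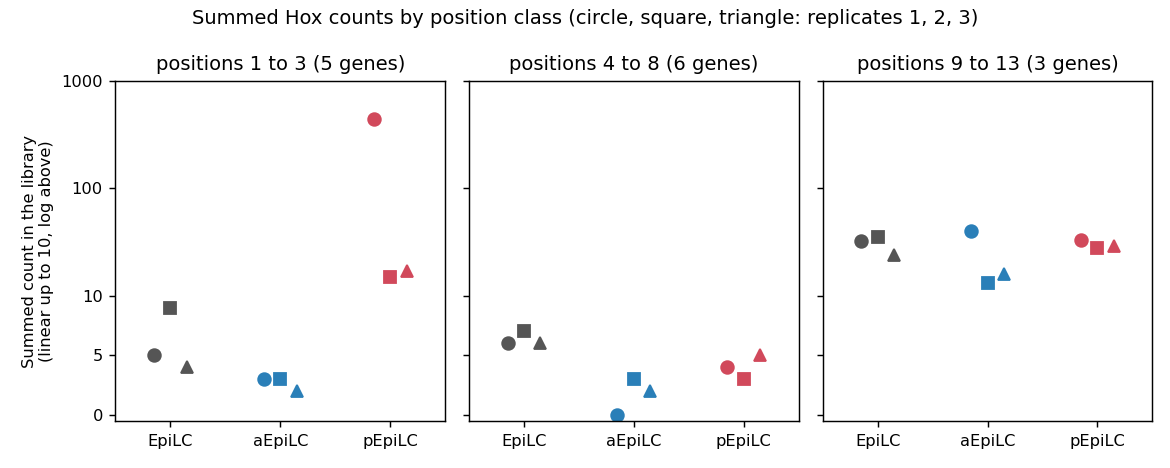
Summed rounded counts (y axis, linear up to 10 and log above) of the members with position numbers 1 to 3, 4 to 8 and 9 to 13 in each library of the 3 states (x axis). The states separate in positions 1 to 3, where pEpiLC has 446, 15 and 17 counts, EpiLC lies above the other states in positions 4 to 8 at 6, 7 and 6 counts, and the states overlap in positions 9 to 13.

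Hoxb1 (ENSMUSG00000018973.2, chr11:96365752-96368256, plus strand), a gene of the early streak and of hindbrain rhombomere identity that maintains itself through PBX-HOX sites, had 1, 4 and 1 counts in EpiLC and 2, 0 and 0 in aEpiLC. In pEpiLC it had 397, 2 and 11 counts. Only replicate 1 was far from the rest, and replicate 2 lay within the range of EpiLC. The mean was 6.54 ± 10.8 CPM in pEpiLC, and 0.300 CPM without replicate 1, against 0.0920 ± 0.0816 in EpiLC. The ratio of the pEpiLC mean to the EpiLC mean was 71.1, and 3.26 without replicate 1. Against aEpiLC, at the limit in every library, Hoxb1 was at least 46.5-fold higher, or at least 2.13-fold higher without replicate 1. The latter rests on the 11 counts of replicate 3, since replicate 2 was at the limit itself.

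Hoxd1 (ENSMUSG00000042448.5, chr2:74762980-74765142, plus strand), the position 1 gene of the Hoxd cluster, had 2, 3 and 2 counts in the EpiLC replicates, 0, 1 and 1 in aEpiLC, and 8, 8 and 6 in pEpiLC. The 3 states did not overlap, and pEpiLC replicate 1 was not apart from the others. The mean was 0.338 ± 0.0530 CPM (SD, n = 3) in pEpiLC, 0.106 ± 0.0289 in EpiLC and 0.0304 ± 0.0263 in aEpiLC. With both other states at the limit, Hoxd1 was at least 2.42-fold higher in pEpiLC than in EpiLC and at least 2.40-fold higher than in aEpiLC. These bounds were 2.26 and 2.24 without pEpiLC replicate 1. They set the observed pEpiLC mean over the CPM of 3 counts and make no allowance for counting error.

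Next to Hoxb1 in the cluster, Hoxb2 (chr11:96350525-96354012), which acts in the hindbrain, had 27.5 counts in pEpiLC replicate 1 and 0 or 1 count in the other 8 libraries. Hoxb2 was at least 3.09-fold higher in the mean of pEpiLC than in EpiLC, and without replicate 1 it was at 0 in pEpiLC. Hoxb3, a gene of the hindbrain and neck, had 9.01 and 1.08 counts in pEpiLC replicates 1 and 2 and 0 or 1 in the rest. Within pEpiLC replicate 1, counts fell along the cluster from Hoxb1 to Hoxb4: 397, 27.5, 9.01 and 2 counts. They were 0 and 1 for Hoxb7 and Hoxb8, and 15 for Hoxb9. Mean levels per kb of exon in pEpiLC, which allow for gene length, ran in the same order at 2.82, 0.124, 0.0372 and 0.0124 CPM per kb. Without replicate 1 they were 0.129, 0, 0.00515 and 0 CPM per kb, so the order rests on that library. No such series was present in the other 8 libraries, where Hoxb1 to Hoxb8 had at most 4 counts apart from 11 for Hoxb1 in pEpiLC replicate 3. The exons of Hoxb2 and Hoxb3 overlap the antisense Hoxb3os, which had 11.5, 2.92 and 5 counts in pEpiLC, 3, 0 and 0 in EpiLC, and 0 in each aEpiLC library.

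**Figure D3:**
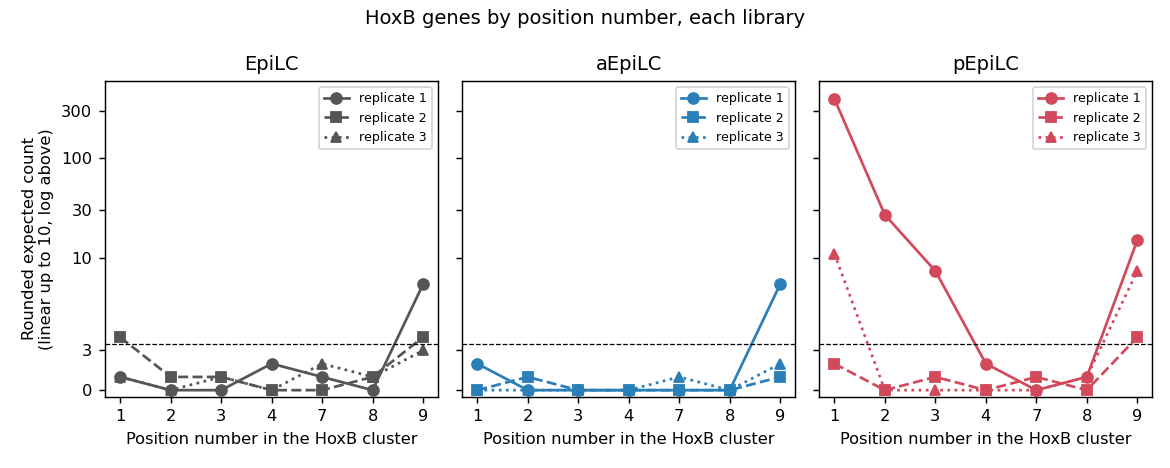
Rounded expected count (y axis, linear up to 10 and log above) of the 7 listed Hoxb genes by position number (x axis), 1 line per library and 1 panel per state, with the detection limit dashed. A series falling with position number, from 397 counts at position 1 to 2 at position 4, is seen in pEpiLC replicate 1, and position 9 has counts in every state.

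Hoxa2, the remaining member of positions 1 to 3 and a gene of the second pharyngeal arch and hindbrain, had 2, 0 and 0 counts in EpiLC, 1, 1 and 1 in aEpiLC and 5, 4 and 0 in pEpiLC, so the states overlapped. No fold is given, since the bound against either state was below 1. Of positions 4 to 8, Hoxa7 had 0, 4 and 3 counts in EpiLC, 0, 0 and 1 in aEpiLC and 0, 2 and 4 in pEpiLC. The other members of this class, Hoxb4, Hoxb7, Hoxb8, Hoxd4 and Hoxd8, act in the neck and trunk and had 0 to 2 counts in every library. At these depths no difference in them was detectable. Exons of Hoxa2, Hoxa7 and Hoxd4 overlap those of other annotated genes.

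The members with the highest position numbers had low counts in all states, and of them only Hoxd13 was above the limit in every library. Hoxd13 (ENSMUSG00000001819.4, chr2:74668310-74671599, plus strand), which patterns digits and the genital tubercle, had 19, 15 and 12 counts in EpiLC, 18, 10 and 8 in aEpiLC, and 9, 18 and 11 in pEpiLC. Means were 0.700 ± 0.178 CPM (SD, n = 3), 0.555 ± 0.254 and 0.577 ± 0.188, and the states overlapped. Hoxc13 (chr15:102921103-102928814), a gene of hair and nail, had 5, 16 and 9 counts, then 14, 2 and 6, then 9, 6 and 9. Its means were 0.456, 0.341 and 0.371 CPM, also overlapping. Hoxb9, a gene of the thorax, had 8, 4 and 3 counts in EpiLC, 8, 1 and 2 in aEpiLC, and 15, 4 and 9 in pEpiLC, with means of 0.229, 0.171 and 0.438 CPM. Between Hoxd13 and Hoxd1, which lie at opposite ends of the Hoxd cluster 91.4 kb apart, Hoxd1 had states that did not overlap and Hoxd13 did not, where 14.4% to 22.6% of all genes did not overlap in a given pair and direction.

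Ordered by mean level per kb of exon, EpiLC was led by Hoxd13 (0.282 ± 0.0718 CPM per kb, SD, n = 3), Hoxc13 (0.185 ± 0.107) and Hoxb9 (0.0889 ± 0.0487), and none of these neighbours differed beyond their spread. In aEpiLC the order was Hoxd13 (0.223 ± 0.102), Hoxc13 (0.139 ± 0.117) and Hoxb9 (0.0664 ± 0.0694). In pEpiLC it was Hoxb1 (2.82 ± 4.65), Hoxd13 (0.233 ± 0.0755), Hoxd1 (0.181 ± 0.0285) and Hoxb9 (0.170 ± 0.106), and none of these neighbours differed beyond their spread. Without pEpiLC replicate 1, the order in pEpiLC was Hoxd13 at 0.262, Hoxd1 at 0.169, Hoxc13 at 0.139 and Hoxb1 at 0.129 CPM per kb.

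The 3 comparisons were fitted over all genes with edgeR's quasi-likelihood test, and a call required a Benjamini-Hochberg adjusted p under 0.05 and a log2 fold change of 1 or more in either direction. The comparisons share libraries, so their results are not independent of each other. edgeR's filter on low counts left 1 of the 14 members in each test, Hoxd13. A median over the members is not given, since 5 members in either comparison with pEpiLC, and 9 in that of aEpiLC with EpiLC, were at the limit in both states.

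In pEpiLC against EpiLC, edgeR called 0 of 1 member tested, where 7.71% of genes were called higher and 8.13% lower, and its unadjusted p was not under 0.05. DESeq2 gave an adjusted p to 5 of the 14 members, not to Hoxb1, and called 0 of the 5. Hoxd13 had a log2 fold change of -0.27 (SE 0.374, edgeR adjusted p = 0.587). In the fit without the filter, which tested all 14 members, Hoxb1 was called (log2 fold change 6.08, SE 1.84, adjusted p = 0.0357), where 5.54% of genes were called higher and 5.94% lower. It lost the call without pEpiLC replicate 1 (1.64, edgeR adjusted p = 0.233). It also lost it without any 1 of the EpiLC replicates, with fitted values of 5.74 to 7.01 (edgeR adjusted p = 0.11 to 0.167). The levels of Hoxd1 did not overlap, as in 22.6% of all genes in this direction (21.8% in the other, with 0 members), but its edgeR adjusted p was 0.0809.

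In aEpiLC against EpiLC, edgeR called 0 members with or without the filter, with 0 at an unadjusted p under 0.05. DESeq2 gave an adjusted p to 3 of the 14 members, Hoxb9, Hoxc13 and Hoxd13, and called 0 of the 3. Of all genes, 7.25% were called higher and 5.24% lower with the filter, and 5.47% and 4.07% without it. Hoxd1 was lower in every aEpiLC library than in any EpiLC library, which held for 19.9% of all genes (22.2% in the other direction, with 0 members), and its edgeR adjusted p without the filter was 0.366 (log2 fold change -1.63, SE 1.26). Hoxd13 had a log2 fold change of -0.35 (SE 0.418, edgeR adjusted p = 0.526).

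In pEpiLC against aEpiLC, 0 of 1 member tested was called with edgeR's filter, where 2.55% of genes were called higher and 4.74% lower, and its unadjusted p was not under 0.05. Without the filter, 1 of the 14 members was called higher, Hoxd1 (log2 fold change 3.23, SE 0.860, edgeR adjusted p = 0.047), where 1.8% of genes were called higher and 3.09% lower. Hoxd1 lost the call without any 1 of the 6 libraries, with edgeR adjusted p of 0.0743 to 0.133. DESeq2 gave an adjusted p to 5 members and called 0 of them, with 0.0856 for Hoxd1. Hoxb1 had a fitted log2 fold change of 7.47 (SE 2.14) and an edgeR adjusted p of 0.0605, and was called when pEpiLC replicate 2 or 3 was left out (adjusted p = 0.0317 and 0.0393 by edgeR). Hoxd1 was higher in every pEpiLC library than in any aEpiLC library, as were 14.4% of all genes. Hoxd13 had a log2 fold change of 0.06 (SE 0.442, edgeR adjusted p = 0.948), and the values of -0.23, -0.07 and -0.17 without pEpiLC replicate 2, aEpiLC replicate 2 or aEpiLC replicate 3 had the other sign.

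**Figure D4:**
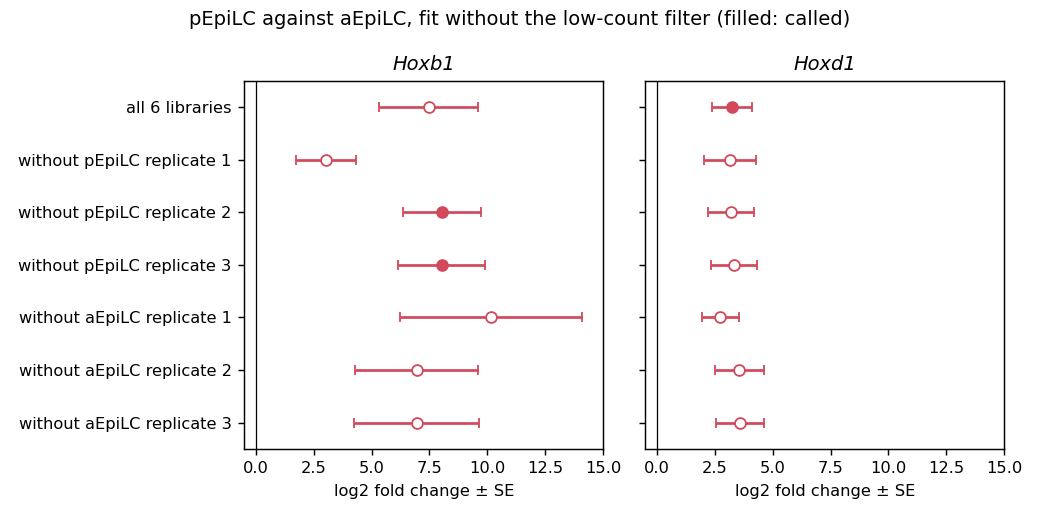
Fitted log2 fold change of Hoxb1 and Hoxd1 in pEpiLC against aEpiLC (x axis, bars are 1 SE) in the fit without the filter, with all 6 libraries and with each left out (y axis), filled where called. Both genes are at the limit in aEpiLC, so these values depend on the prior count and are no bounds, and the value of Hoxb1 moves from 7.47 to 3.04 without pEpiLC replicate 1.

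Of 17 genes known to act upstream of Hox genes, 13 were tested in pEpiLC against EpiLC, and 6 rose and 2 fell, where 7.71% of all genes rose and 8.13% fell. Cdx1, Cdx2 and Cyp26a1, with at most 4 counts in any EpiLC library, passed the filter through pEpiLC alone, so their direction was fixed by passing. Over the 10 genes tested in all 3 comparisons, 3 rose and 2 fell, and the median log2 fold change was -0.15 against 0.017 over all genes (-0.097 against 0.0068 without pEpiLC replicate 1). Without that replicate, 7 of the 13 rose and 2 fell. Those that rose with all libraries were Cdx1 and Cdx2 (caudal factors that switch on Hox genes of the trunk), Wnt3 and Fgf8 (ligands of the streak), Nkx1-2 (a marker of the caudal epiblast) and Cyp26a1 (an enzyme that degrades retinoic acid). Cdx1 was at 0 to 0.0463 CPM in EpiLC and at 16.9, 0.745 and 0.745 CPM in the pEpiLC replicates, at least 43.8-fold higher (edgeR adjusted p = 0.0161), or at least 5.34-fold without replicate 1. Cdx2 was at 0.185, 0.0931 and 0.131 CPM in EpiLC and at 6.99, 1.05 and 0.931 CPM in pEpiLC (log2 fold change 4.40, SE 1.02, edgeR adjusted p = 0.0111; 2.81 without replicate 1). Cyp26a1 was at 0 in EpiLC and at 85.6, 2.98 and 2.10 CPM in pEpiLC, at least 216-fold higher (edgeR adjusted p = 0.0325), or at least 18.2-fold without replicate 1. Like Hoxb1, these 3 genes had their highest level in pEpiLC replicate 1, at 22.6, 7.05 and 33.7 times the mean of the other pEpiLC replicates, where Hoxb1 was at 63.4 times.

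Fgf8 and Wnt3 were higher in all 3 pEpiLC libraries than in any EpiLC library, and replicate 1 was at 1.13 and 1.60 times the mean of the other pEpiLC replicates, where Hoxd1 was at 1.22 times. Fgf8 was at 3.05, 2.65 and 2.39 CPM in EpiLC and at 124, 110 and 111 CPM in pEpiLC (log2 fold change 5.41, SE 0.113, edgeR adjusted p = 1.25e-06). Wnt3 was at 5.83, 3.49 and 4.79 CPM in EpiLC and at 94.2, 55.2 and 62.4 CPM in pEpiLC (3.90, SE 0.265, edgeR adjusted p = 9.79e-05). Nkx1-2 rose by 5.36 (SE 0.173, edgeR adjusted p = 4.64e-06). Wnt3a, a streak ligand that did not pass the filter, was at 21.2, 0.307 and 0.512 CPM in pEpiLC and at 0 to 0.141 CPM elsewhere. The 2 that fell were Fgf4, an FGF ligand of the epiblast (log2 fold change -4.58), and Rarg, a retinoic acid receptor (-1.49), with edgeR adjusted p of 0.000157 and 0.00123.

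**Figure D5:**
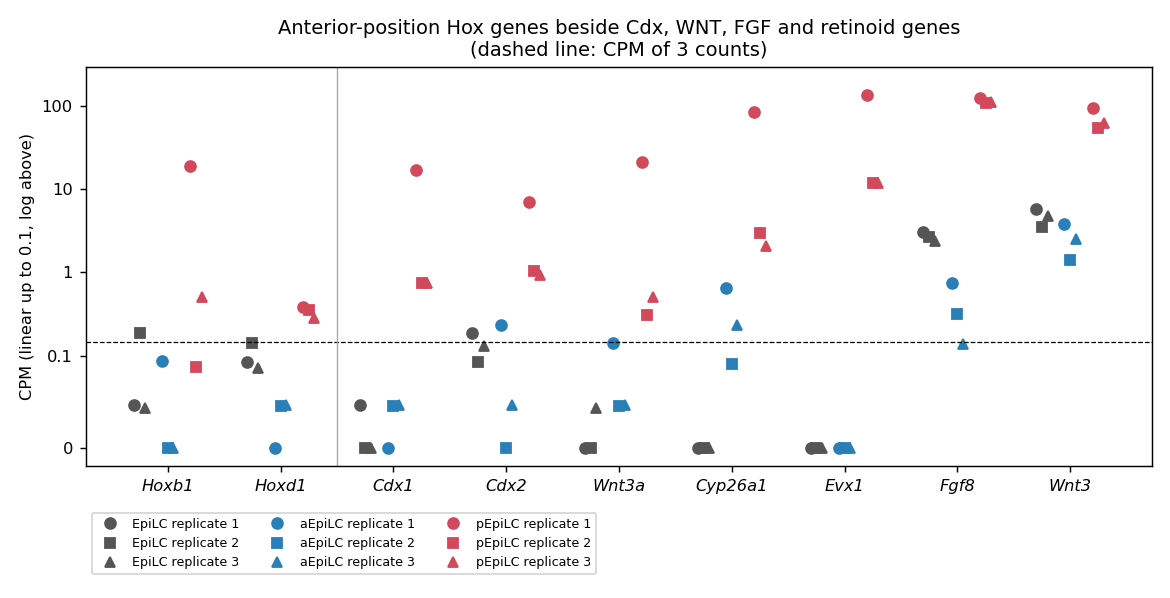
CPM (y axis, linear up to 0.1 and log above) of Hoxb1, Hoxd1 and 7 genes from the lists of upstream and Hox-related genes in the 9 libraries, coloured by state, with the CPM of 3 counts dashed. In pEpiLC replicate 1 (red circles) Hoxb1, Cdx1, Cdx2, Wnt3a, Cyp26a1 and Evx1 lie well above the other pEpiLC replicates, while Hoxd1, Fgf8 and Wnt3 do not stand apart to that extent.

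In aEpiLC against EpiLC, 3 of 10 of these genes rose and 2 fell, where 7.25% and 5.24% of all genes did (median log2 fold change -0.27 against 0.0023 over all genes). Crabp2, which carries retinoic acid in the cell, rose by 1.47 (SE 0.111, edgeR adjusted p = 2.75e-07), Nkx1-2 by 3.15 and Egr2, a hindbrain factor, by 1.60 (edgeR adjusted p = 0.0238). Fgf8 and Fgf4 fell, with log2 fold changes of -2.75 and -1.59. Egr2 and Fgf8 were over the filter's cutoff in 3 libraries of the higher state and 1 of the lower, so their passing rested mostly on the state where they were high. In pEpiLC against aEpiLC, 6 of 13 rose, namely Cdx1, Cdx2, Cyp26a1, Fgf8, Nkx1-2 and Wnt3, and Crabp2 (-2.47) and Fgf4 (-3.02) fell, where 2.55% and 4.74% of all genes did. Cdx1 and Cdx2 passed the filter through pEpiLC alone, and Cyp26a1 and Fgf8 were over its cutoff in 1 aEpiLC library. Over the 10 genes tested in all 3 comparisons, 3 rose and 2 fell, and the median was -0.30 against 0.012 over all genes. Without pEpiLC replicate 1 the counts over the 13 were again 6 and 2, and the median over the 10 was -0.23 against 0.0081.

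Of 8 cofactors of the TALE class, which bind DNA together with Hox proteins, 7 were tested. In pEpiLC against EpiLC, 2 rose, Meis2 (log2 fold change 3.28, SE 0.839, edgeR adjusted p = 0.0163) and Meis3 (2.40, SE 0.494, edgeR adjusted p = 0.00686), where 7.71% of all genes rose and 8.13% fell. Meis2 was under the filter's cutoff in every EpiLC library, so its direction against EpiLC was fixed by passing, in pEpiLC and in aEpiLC alike. Meis2 was at 4.65, 0.833 and 0.885 CPM in pEpiLC and Meis3 at 23.3, 7.63 and 8.66 CPM, so replicate 1 was highest in both. Without it both still rose, Meis2 by 1.98 and Meis3 by 1.70 (edgeR adjusted p = 0.005 and 3.06e-05). The median over the 7 was 0.78 against 0.017 over all genes, and 0.36 against 0.0068 without replicate 1. In aEpiLC against EpiLC, Meis2 (2.57) and Meis3 (1.24) rose, where 7.25% of all genes rose and 5.24% fell, and the median was 0.24 against 0.0023. In pEpiLC against aEpiLC, edgeR called 0 of the 7 with or without pEpiLC replicate 1, where 2.55% of all genes rose and 4.74% fell, and the median was 0.046 against 0.012.

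Among 9 ParaHox, Evx and Mnx genes, relatives of the Hox genes, 7 were in the table and the other 4 of these did not pass the filter in any comparison with pEpiLC. Cdx1, Cdx2 and Evx1 passed only through their pEpiLC counts, so that they rose was fixed by passing, and their values are a description. Evx1, a streak gene 52.6 kb beyond the Hoxa13 end of the Hoxa cluster, had 0 counts in every EpiLC and aEpiLC library and 2830, 269 and 256 counts in pEpiLC. In pEpiLC it was at least 380-fold higher than in EpiLC (edgeR adjusted p = 0.0114), and the bound was 84.9-fold without replicate 1. Evx1os, which overlaps it on the other strand, had 1382, 98 and 90 counts in pEpiLC and at most 1 in any other library.

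Of 21 listed non-coding genes of the Hox clusters, 4 were in the table, and 1 of them passed the filter, Evx1os, through its pEpiLC counts alone. Non-coding genes inside the clusters that were not on that list include Gm53, described below, and Haglr next to Hoxd1. Haglr had 6, 3 and 6 counts in EpiLC, 5, 0 and 0 in aEpiLC, and 3, 10 and 2 in pEpiLC. Of 13 listed protein-coding genes that flank the clusters, 12 were in the table and 11 were tested. edgeR called 0 of the 11 in each comparison, where 2.55% to 8.13% of all genes were called in a direction, and their medians were 0.065, 0.041 and 0.0081 in pEpiLC against EpiLC, aEpiLC against EpiLC and pEpiLC against aEpiLC, the first 0.11 and the last -0.029 without pEpiLC replicate 1. Calcoco2, a gene within 100 kb of the Hoxb cluster and not on the list of flanking genes, was lower in both later states. Against EpiLC its log2 fold changes were -3.00 in pEpiLC and -1.98 in aEpiLC. It passed the filter through EpiLC alone in the former and mostly through EpiLC in the latter. Its fall was therefore fixed by passing, or nearly so. Mtx2 and Lnpk, on either side of the Hoxd cluster, had 923 to 1568 and 430 to 556 counts in the 9 libraries.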

How the data were processed

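The authors mapped reads to GRCm38 and deposited RSEM expected counts per gene symbol, without normalization (STAR 2.7.9a and RSEM 1.3.1 per the submitters' processing notes). The annotation and the strandedness are not given in the sources used here. Expected counts were rounded. Groups came from the sample labels. Each pair of states was fitted in R 4.3.3 with edgeR 4.0.16 (TMM, filterByExpr, glmQLFit and glmQLFTest) on its 6 libraries, and DESeq2 1.42.0 was an alternative. Standard errors follow from the fitted fold change and the F statistic. Where every library of a state had at most 3 counts, the fold against it is a lower bound, over the CPM of 3 counts. Such a bound uses the observed mean of the other state and makes no allowance for counting error. CPM were TMM-scaled over 9 libraries, and CPM per kb divides by exon length. Of the symbols, 22853 matched GENCODE M21. The results of 1 further row that matches the rule, and of 1 gene in each of 2 gene lists, are not reported here. Members and gene lists were chosen with earlier results of these data known. Per-library values are given for members called, at 0.5 CPM or more in a state, or near the limit, and other genes are named where called. The procedure was tested on simulated data. Each replicate was left out in turn, and fits without the filter were also run with a replicate left out or with the replicate number as a block.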

Additional observations from a re-analysis of the deposited data

Results flagged for a closer look

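In the fit without the filter on low counts, Hoxd1 differed between pEpiLC and aEpiLC, the states made from EpiLC by different media. Its fitted log2 fold change was 3.23 (SE 0.860, adjusted p = 0.047, edgeR), and it was higher in 3 of 3 pEpiLC libraries than in any aEpiLC library. Such non-overlap held for 14.4% of all genes. Leaving out 1 library gave 2.73 to 3.58, but the call was lost without any 1 of the 6 libraries (edgeR adjusted p = 0.0743 to 0.133), and DESeq2 gave an adjusted p of 0.0856. Hoxd1 was at the limit in aEpiLC, so the fitted value depends on the prior count, and the bound is at least 2.40-fold.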

How the results depend on the processing

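The number of Hox genes called depended on the filter and, with it, on a single library. In pEpiLC against EpiLC and in pEpiLC against aEpiLC it was 0 higher as reported, with RLE size factors, DESeq2, the likelihood ratio test, the replicate block and a fit over all 9 libraries, and 1 without the filter, Hoxb1 in the former and Hoxd1 in the latter. Leaving out 1 library gave 0 to 1 with the filter and 0 to 1 without it in both. With the filter the call was Hoxb1 without pEpiLC replicate 2, with log2 fold changes of 6.66 (edgeR adjusted p = 0.0163) and 8.06 (edgeR adjusted p = 0.0329). In aEpiLC against EpiLC, and for members called lower in all 3 comparisons, it was 0 under every alternative run. Hoxd13 in pEpiLC against aEpiLC, 0.06 as reported, was -0.23, -0.07 and -0.17 when pEpiLC replicate 2, aEpiLC replicate 2 or aEpiLC replicate 3 was left out, and 0.48 at the highest, without aEpiLC replicate 1. The labels do not say that the replicate numbers pair samples, and the correlations of same-numbered libraries were 0.0145 to 0.0329 in pEpiLC against EpiLC, -0.0623 to 0.025 in aEpiLC against EpiLC and 0.0639 to 0.176 in pEpiLC against aEpiLC, not all over 0.1. In both comparisons with pEpiLC every library correlated best with its own number, a hint from the data and not from the design. The block therefore stayed an alternative, and with the filter the block was run on Hoxd13 alone, which was not called. With the replicate block and no filter, 1 member was called higher in each comparison with pEpiLC, Hoxb1 in both (5.36 and 7.42, edgeR adjusted p = 0.00837 and 4.53e-05), and Hoxd1 in pEpiLC against aEpiLC was not (3.24, edgeR adjusted p = 0.108). Over all genes, pEpiLC against aEpiLC had 387 called higher and 721 lower, and 180 to 419 and 334 to 759 with 1 library left out, the lowest without aEpiLC replicate 2. The number of members above the limit in every library was 2 in EpiLC, 1 in aEpiLC and 4 in pEpiLC. With a limit of 1 count it was 4, 2 and 5, with a limit of 10 counts 1, 0 and 0, and with 1 library left out 2 to 3, 1 to 2 and 4 to 5. The fits without the filter that also left out a library or held the block were chosen after seeing the data. The cause of these changes was not tested. Between 0 and 3 counts per library, where most members lie, changes of several-fold would not be detectable at this depth.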

Other observations

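Around the Hoxb cluster, Calcoco2 (chr11:96099326-96111964), an autophagy receptor gene within 100 kb of the cluster, had 43, 30 and 43 counts in EpiLC, 12, 10 and 7 in aEpiLC, and 4, 6 and 4 in pEpiLC. Its log2 fold changes against EpiLC were -3.00 (SE 0.335, edgeR adjusted p = 0.000612) in pEpiLC and -1.98 (SE 0.341, edgeR adjusted p = 0.000372) in aEpiLC. With pEpiLC counts under the filter's minimum of about 10, it passed through EpiLC alone, so that fall was fixed by passing. In aEpiLC its counts lay around that minimum, so its passing rested mostly on EpiLC. Of all genes, 8.13% were called lower in pEpiLC and 5.24% in aEpiLC against EpiLC. Gm53, a non-coding gene inside the cluster next to Hoxb9, had 21 to 47 counts in the 9 libraries, and was not called in any comparison (edgeR adjusted p = 0.267, 0.669 and 0.525). Skap1, which did not pass the filter, had 0, 4 and 4 counts in EpiLC, 9, 12 and 9 in aEpiLC, and 23, 10 and 5 in pEpiLC, and every aEpiLC and every pEpiLC library was above every EpiLC library, as in 22.2% and 22.6% of all genes. These genes were chosen after their values were seen.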
